A study of Rattus norvegicus with 13 samples.

Results

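The genes described here code for the chains of the receptors for interleukin (IL)-4 and IL-13 and for the transcription factor behind them: Il4r, Il13ra1, Il13ra2 and Stat6. They were followed in articular chondrocytes of the rat given glucosamine, IL-1β or both. Probe sets were taken by symbol, where the platform's annotation listed 1 gene alone, and 3 of the 4 symbols had such a probe set, 1 each, among 31042 probe sets without controls: 1369266_at for Il13ra2, 1368134_a_at for Il4r and 1382350_at for Stat6. Both probe sets listed for Il13ra1 are also listed for its pseudogene Il13ra1-ps1, so that Il13ra1 has no probe set of its own, and these are given as shared probe sets. Il13ra2 was picked because its signal on these arrays rose with IL-1β and stayed high when glucosamine was present, so its values are a description and carry no test.

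The cells came from femoral head cartilage of male Wistar rats aged 2 months and were used at second passage, and 13 arrays (Affymetrix Rat Genome 230 2.0) held 1 culture flask each. There were 3 untreated arrays, 2 arrays of cells kept in 20 mM glucosamine for 20 hours, 4 arrays of cells that had 14 hours of IL-1β at 10 ng/ml, and 4 arrays of cells given 20 mM glucosamine 6 hours before 14 hours with 10 ng/ml IL-1β. All flasks were seeded from 1 pool of cells, so that p-values measure the spread between flasks and not between animals. In such bulk samples, fewer cells of a type and less RNA per cell cannot be told apart.

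IL-4 and IL-13 are cytokines of type 2 immunity with overlapping receptors. IL-4 receptor α (Il4r) binds IL-4 and pairs either with the common γ chain (Il2rg) or with IL-13 receptor α1 (Il13ra1), and the latter pair also answers to IL-13. Janus kinases bound to these chains phosphorylate STAT6, which then enters the nucleus. IL-13 receptor α2 (Il13ra2) binds IL-13 tightly but has a short cytoplasmic tail without a Janus kinase site and is best known as a decoy that takes IL-13 away from the signaling chains. In cartilage, IL-4 and IL-13 are known mainly as cytokines that oppose IL-1.

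Signals are the deposited linear intensities. For folds and tests, intensities under 5.71, the 25th percentile over all arrays, were set to it before log2 was taken, and a change was called at an adjusted p under 0.05 (limma, Benjamini-Hochberg over 29263 probe sets). The comparisons share arrays with each other and are given side by side. The arrays' 75th percentiles lay between 112 and 119. The 2 arrays labelled d, 1 with IL-1β and 1 with both agents, stood apart: their 1st percentiles were -36.8 and -31.0, against -6.47 to -4.81 on the other 11 arrays, so results are also given without them where they matter. Chondrocyte markers were present, with 11 of 12 measured genes (among them Col2a1 and Acan, for type II collagen and aggrecan) above the floor on all arrays and a summed signal of 10175 to 11451 on untreated arrays, 7850 to 8148 with glucosamine, 5594 to 6757 with IL-1β and 6279 to 7336 with both agents. With IL-1β 9 of the 11 fell and 0 rose (15.3% and 15.5% over all genes). Chad, for chondroadherin, was the only 1 of the 12 not above the floor on any array.

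The decoy chain Il13ra2 was at background in untreated cells, high with IL-1β, and nearly as high with IL-1β in the presence of glucosamine. Its signals on the untreated arrays a, b and c were 1.76, 2.52 and 2.86, all under the floor. With glucosamine alone they were 8.83 and 7.72. With IL-1β the arrays a to d read 82.0, 79.4, 68.5 and 97.1.

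With both agents the arrays a to d of Il13ra2 read 55.3, 72.6, 56.8 and 90.8. All 8 arrays with IL-1β thus lay far above the 5 without it, and the arrays with both agents overlapped those with IL-1β alone. The group means were 2.38 ± 0.563 (SD, n = 3) untreated, 8.27 ± 0.791 (n = 2) with glucosamine, 81.7 ± 11.8 (n = 4) with IL-1β and 68.9 ± 16.6 (n = 4) with both.

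Expressed as folds of floored signals, Il13ra2 was at least 14.2-fold higher with IL-1β than without (3.83 on the log2 scale, SE 0.22, a lower bound). With glucosamine in both groups compared, IL-1β gave an 8.17-fold higher signal (log2 3.03, SE 0.25). Both agents against IL-1β alone differed by -0.27 on the log2 scale (SE 0.20), a signal 1.20-fold lower. The d arrays were the highest of their groups; without them the means were 76.6 with IL-1β and 61.6 with both agents.

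**Figure D1:**
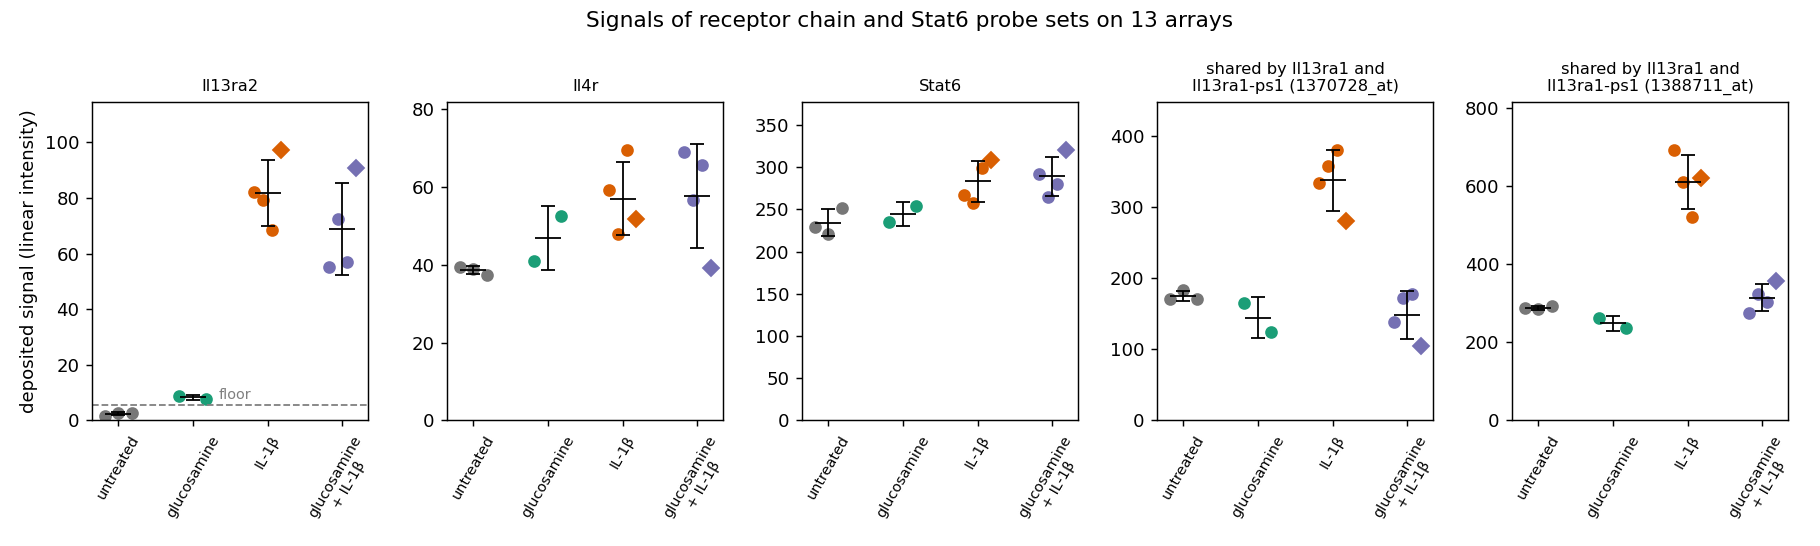
Deposited signal (linear intensity, vertical axes starting at 0) of Il13ra2, Il4r, Stat6 and the probe sets shared by Il13ra1 and its pseudogene on 13 arrays, by treatment group. Points are arrays, diamonds the arrays labelled d, bars the mean ± SD, and the dashed line the floor of 5.71. Il13ra2 is high in both groups with IL-1β, whereas the shared probe sets are high with IL-1β alone.

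Il4r, the chain that both cytokines need for signaling through STAT6, moved far less. Its signals were 39.5, 38.8 and 37.5 on the untreated arrays and 41.0 and 52.6 with glucosamine. With IL-1β they were 59.1, 47.9, 69.4 and 51.6, all above the untreated arrays.

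With both agents Il4r read 69.0, 56.6, 65.7 and, on array d, 39.3. That last array lay within the untreated range, and the other 3 lay within the range of IL-1β alone. In order, the means were 38.6 ± 1.01 (SD, n = 3) untreated, 46.8 ± 8.19 (n = 2) with glucosamine, 57.0 ± 9.47 (n = 4) with IL-1β and 57.6 ± 13.3 (n = 4) with both agents, and the ranges of the last 3 overlapped.

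IL-1β against untreated gave a log2 difference of 0.55 for Il4r (95% confidence interval 0.10 to 1.00, adjusted p = 0.079 with limma), which did not pass the threshold. It passed when array d with both agents was left out, with the same difference of 0.55 (adjusted p = 0.019), without both d arrays (0.59, adjusted p = 0.013) and with the replicate letter as a block (0.66, adjusted p = 0.020). Glucosamine alone (0.27, interval -0.27 to 0.81) and IL-1β in the presence of glucosamine (0.28, interval -0.23 to 0.79) did not pass either. Both agents and IL-1β alone could not be told apart (interval of the log2 difference -0.42 to 0.42, adjusted p = 1).

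Stat6, the transcription factor that the signaling chains share, was measured well above the floor in every group. It read 229.6, 220.9 and 252.1 on untreated arrays and 234.6 and 254.7 with glucosamine. With IL-1β it read 267.5, 257.4, 298.8 and 309.2, each above the highest untreated array.

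With both agents Stat6 read 291.7, 264.8, 280.2 and 320.0, which overlapped IL-1β alone and lay above both arrays with glucosamine. The means were 234 ± 16.1 (SD, n = 3) untreated, 245 ± 14.2 (n = 2) with glucosamine, 283 ± 24.7 (n = 4) with IL-1β and 289 ± 23.3 (n = 4) with both. Neighbours in this order overlapped except glucosamine and IL-1β.

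Stat6 rose 1.21-fold with IL-1β (log2 0.27, SE 0.09, adjusted p = 0.038 with limma). Of 13748 genes tested, 15.5% were called higher and 15.3% lower in this comparison. The call was narrow: it was lost at log2 0.23 without untreated array b or IL-1β array d, at 0.24 without IL-1β array c, at 0.26 without untreated array a, and at an unchanged 0.27 without array a or c with both agents. With glucosamine present the IL-1β difference was 0.24 (interval 0.03 to 0.45, adjusted p = 0.51), glucosamine alone gave 0.06 (adjusted p = 0.98), and both agents against IL-1β gave 0.03 (interval -0.14 to 0.20).

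The 2 probe sets shared by Il13ra1 and its pseudogene, whose signals cannot be divided between the transcripts, were high with IL-1β alone and not with both agents. Probe set 1388711_at read 287.0, 284.1 and 292.0 untreated and 262.9 and 235.4 with glucosamine. With IL-1β it read 691.0, 611.2, 520.9 and 620.1, and with both agents 274.3, 323.9, 302.8 and 357.2. The IL-1β arrays lay above all 9 others.

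Probe set 1370728_at read 170.4, 183.3 and 170.8 untreated and 164.6 and 124.3 with glucosamine. With IL-1β it read 333.1, 357.8, 379.2 and 279.4, and with both agents 138.1, 172.3, 177.7 and 104.0. Here too the IL-1β arrays did not overlap any other group.

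IL-1β raised 1388711_at 2.11-fold (log2 1.08, SE 0.10, adjusted p = 9.0e-06 with limma) and 1370728_at 1.92-fold (0.94, SE 0.18, adjusted p = 0.0020). With both agents the signals were 1.94-fold and 2.31-fold lower than with IL-1β alone (-0.96, adjusted p = 1.7e-05, and -1.21, adjusted p = 2.1e-04). In the presence of glucosamine, IL-1β gave log2 differences of 0.33 (interval 0.08 to 0.59, adjusted p = 0.34) and 0.02 (interval -0.42 to 0.46, adjusted p = 1). The interaction, the IL-1β response with glucosamine minus that without, was -0.75 (adjusted p = 0.0098) for 1388711_at and -0.92 (adjusted p = 0.060) for 1370728_at. The first call was lost without glucosamine array a (-0.67, adjusted p = 0.073). The second passed without IL-1β array d (-1.01), without array c (-1.02) or d (-0.76) with both agents, and with the replicate letter as a block (-0.95, adjusted p = 0.012). Il13ra1 stands in the study's own list of affected genes, so these tests are not independent of how the genes were chosen.

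The interaction was -0.27 for Il4r (interval -0.95 to 0.41) and -0.03 for Stat6 (interval -0.32 to 0.25), neither called (limma, adjusted p = 0.91 and 1.0). For Il13ra2 it was -0.80 (SE 0.33), and this value depends on the floor because the untreated arrays lie under it. Among all genes tested, 5.11% had a higher and 6.68% a lower interaction called.

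How much of the IL-1β response was kept with glucosamine was also set against other strongly responding genes. In all, 245 genes were at least 5-fold higher with IL-1β at an adjusted p under 0.05. Il13ra2 is counted among them, but it was picked for this response, so its passing is no test. The retained share is the log2 response to IL-1β over glucosamine divided by that over untreated cells. Il13ra2 was picked for a high retained share, so its value and its place among these genes only describe that choice. The share was at most 79.2% for Il13ra2, since its untreated arrays lay under the floor, and 23.2% for the median of the 245 genes, and 4 genes had a higher one. With a floor at the 10th percentile the share of Il13ra2 was 59.2%, and 43 of 381 genes had a higher one. Without the d arrays Il13ra2 kept 77.2%.

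The 4 genes above Il13ra2 were Cx3cl1 (113%), for the chemokine fractalkine, Bmp6 (92.5%), for a bone morphogenetic protein, Tlr2 (90.2%), for a Toll-like receptor, and Pla2g2a (84.9%), for a secreted phospholipase A2. In all 4 the glucosamine baseline was below the untreated one, and both agents gave less signal than IL-1β alone. Cx3cl1 read 168 ± 18.7 untreated, 36.6 ± 13.2 with glucosamine, 1731 ± 183 with IL-1β and 496 ± 22.3 with both agents. For Tlr2 the means were 106 ± 0.928, 70.4 ± 14.8, 1679 ± 198 and 841 ± 56.8 in the same order. Il13ra2 had the higher of its baselines with glucosamine.

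Measured from IL-1β alone, 209 of the 245 genes were called lower with both agents (14.8% over all genes), with a median log2 difference of -2.05, against -0.27 for Il13ra2. The 245 genes were taken for high signals on the same IL-1β arrays, so nothing is read from this count. In 18 other genes the difference was no more negative than that of Il13ra2. Of these 18, 15 were called higher with glucosamine alone, as were 71 of the 245 (10.4% over all genes), and the remaining 3 were not called. Among them, chosen after their values were seen, Mmp13, for a collagenase of cartilage, had log2 changes of 4.06 with IL-1β and 2.99 with glucosamine, and Atf3, for a stress-induced transcription factor, had 3.41 and 3.47. The corresponding values of Il13ra2 were 3.83 and 0.53, both lower bounds because its untreated arrays lay under the floor. With the floor at the 10th percentile they were 5.12 and 1.83.

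**Figure D2:**
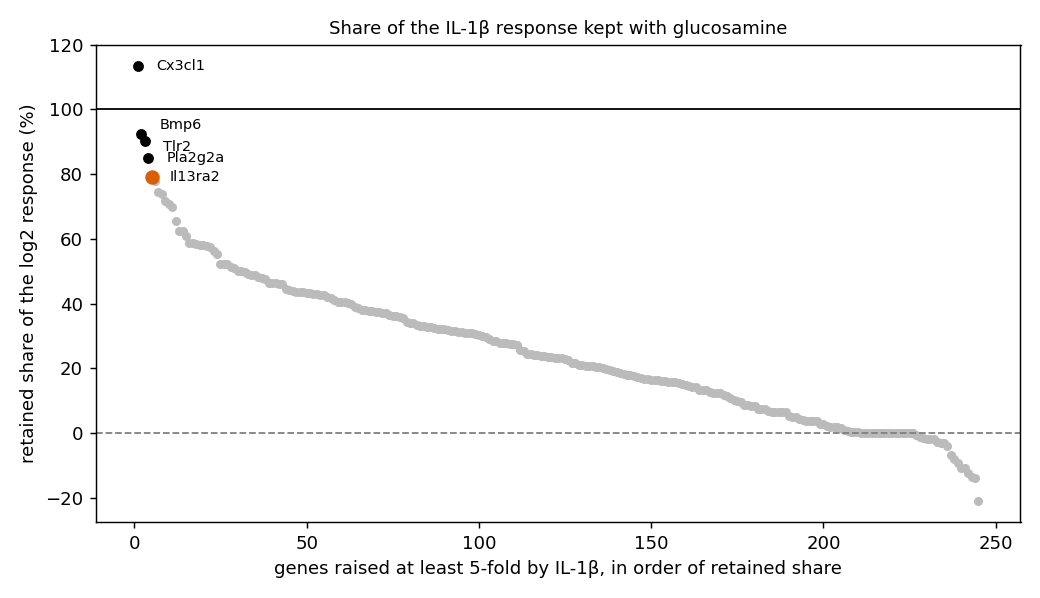
Retained share of the log2 IL-1β response in percent (vertical axis) for 245 genes raised at least 5-fold by IL-1β, ordered from the largest share (horizontal axis). Each point is a gene, the solid line marks 100% and the dashed line 0%, and Il13ra2 (orange), picked for a high share, is the fifth, at 79.2%.

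The share depends on the baseline and the floor. With untreated cells as the baseline for both agents, Il13ra2 kept 93.0%, with 16 genes above and a median of 38.5%. On the linear scale it kept 76.3%, with 3 genes above and a median of 11.6%. A floor at the 40th percentile gave 89.4%, with 3 of 180 genes above. With a floor of 32 the share was 80.2%, but the IL-1β change of Il13ra2 was then 1.34 on the log2 scale, under the 5-fold minimum, so that it was not among the 129 genes that passed.

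Around these members stand the other genes of the pathway: 34 were listed as ligands, receptor chains, Janus kinases, signal carriers and inhibitors, 33 had a probe set of their own and 31 were tested beside Il13ra2. IL-1β raised 9 of the 31 and lowered 1, beside the 15.5% and 15.3% of all genes given above. The median log2 change of the 31 was 0.23, against 0.09 over all genes tested. The ligands were at background: Il4 was not above the floor on any array, and Il13 reached it on 1 array with IL-1β and 1 with both agents, with a highest signal of 9.45. The common γ chain Il2rg was likewise near the floor, with a highest signal of 20.6.

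Among the Janus kinases, Jak2 rose 2.73-fold with IL-1β and its response was smaller with glucosamine. Its means were 89.7 ± 3.97 untreated (n = 3), 103 with glucosamine (95.2 and 110.7), 251 ± 64.3 with IL-1β (n = 4) and 129 ± 6.51 with both (n = 4). The log2 changes were 1.45 with IL-1β (adjusted p = 4.2e-05) and -0.93 for both agents against IL-1β (adjusted p = 8.1e-04). Its interaction of -1.12 was called (adjusted p = 0.015, limma) and was not without glucosamine array b (-1.02, adjusted p = 0.093). Jak1, which binds the Il4r chain, had means of 1091 to 1231 in the 4 groups with no call, and Jak3 and Tyk2 were not called either.

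Of the 12 signal carriers, 4 rose with IL-1β and 1 fell (15.5% and 15.3% over all genes). Insulin receptor substrate 2, Irs2, which IL-4 receptors use beside STAT6, rose by 1.71 on the log2 scale, from 77.4 ± 6.50 to 259 ± 63.9, and read 102 ± 15.3 with both agents. Its relative Irs1 fell by 2.28, from 30.1 ± 2.58 to 5.87 ± 1.11, close to the floor. The coactivator gene Ep300 rose by 0.38, Stat6 by 0.27 and the adaptor gene Shc1 by 0.22. The Ep300 call was lost without untreated array b (0.37), and that of Shc1 without untreated array b (0.20) or c (0.22).

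Of the 12 inhibitors, 4 rose with IL-1β and 0 fell (15.5% and 15.3% over all genes). Socs3 and Socs5, suppressors of cytokine signaling, rose by 1.65 and 1.27 on the log2 scale. Ptpn1 and Ptpn2, phosphatases that act on Janus kinases and STAT proteins, rose by 1.07 and 0.87. Socs5 read 293 ± 4.66 untreated, 492 ± 2.27 with glucosamine, 706 ± 59.5 with IL-1β and 490 ± 21.9 with both agents, so that the 2 groups with glucosamine had nearly the same mean.

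With glucosamine alone, where 10.4% of all genes were called higher and 9.37% lower, Socs5 (0.75, adjusted p = 5.5e-05, limma) was the only 1 of the 31 called higher and Shc1 (-0.28, adjusted p = 0.024) the only 1 called lower. The number called, 2 here, was 10 with the 2 compared groups fitted alone and 4 without both d arrays. The Shc1 call was lost without glucosamine array a (-0.27) or b (-0.30), or untreated array a (-0.26) or c (-0.28). For Il13ra2 the same comparison gave 0.53 (SE 0.26) from the floor, a lower bound.

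Over glucosamine, IL-1β changed 0 of the 31 pathway genes in either direction by limma, 3 had an unadjusted p under 0.05, and the methods' analysis of variance with the Tukey test also called 0. Over all genes only 1.45% were called higher and 1.13% lower in this comparison, which rests on 2 glucosamine arrays. Il13ra2 had a log2 difference of 3.03 there, and the median of the 31 genes was 0.06. The next largest rise among genes with a called IL-1β response was that of Jak2, at 0.33. Inpp5d, a listed inhibitor not called with IL-1β, had log2 group means over untreated of 0.0 with glucosamine, 1.59 with IL-1β and 1.38 with both. Its interaction was -0.12 with an SE of 1.05. Irs1, which fell with IL-1β, was lower with both agents than with glucosamine. Its group means against untreated were -1.52 and -0.26 on the log2 scale, and its interaction of 1.04 was not called.

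Both agents against IL-1β alone gave 9 lower calls and 0 higher calls among the 31 (14.8% and 15.8% over all genes). With limma, 13 of the 31 had an unadjusted p under 0.05 there. The log2 differences of the called genes were -2.49 for Socs3, -1.46 for Ptpn1, -1.45 for Cish, a further suppressor, -1.33 for Irs2, -0.95 for Pik3cd, a phosphoinositide kinase, -0.93 for Jak2, -0.52 for Shc1 and Socs5, and -0.47 for Ptpn2. The calls for Cish and Pik3cd did not hold when single arrays were left out. That of Cish was lost without array a (-1.16), b (-1.42) or c (-1.41) with both agents or IL-1β array b (-1.42). That of Pik3cd was lost in 10 of 13 such fits (-1.03 to -0.85) and held only without array b, c or d with both agents.

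The interaction was called lower for 5 of the 31 genes and higher for 0 (6.68% and 5.11% over all genes). The 5 were Irs2 (-1.70), Socs5 (-1.27), Ptpn1 (-1.14), Jak2 (-1.12) and Ptpn2 (-0.65). The Ptpn2 call was lost without glucosamine array a (-0.56). With limma, 7 of the 31 had an unadjusted p under 0.05.

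**Figure D3:**
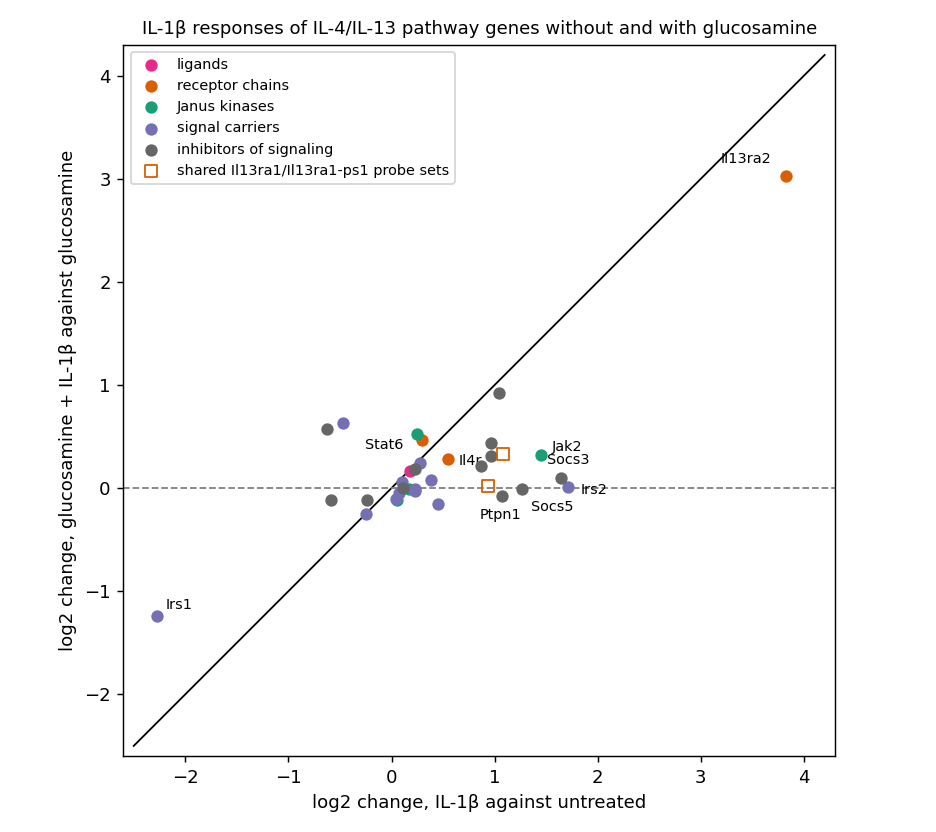
Log2 change with IL-1β against untreated (horizontal axis) and with glucosamine plus IL-1β against glucosamine (vertical axis) for the pathway genes tested and the shared probe sets, coloured by role. Points on the solid line have equal changes, and points on the dashed line have no difference in the presence of glucosamine. Il13ra2 lies at 3.83 and 3.03. Jak2, Irs2, Socs3, Socs5, Ptpn1 and Ptpn2, all called higher with IL-1β, lie at 0.87 to 1.71 and at -0.07 to 0.33. Irs1, called lower and close to the floor with IL-1β, lies at -2.28 and under the dashed line.

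**Figure D4:**
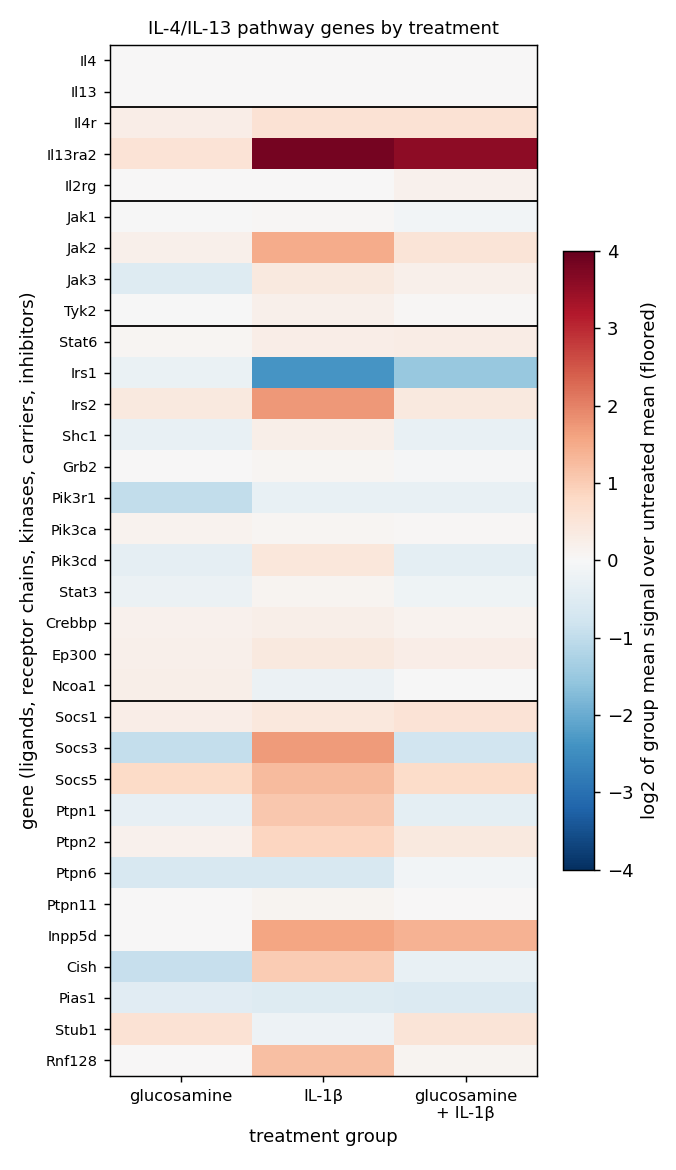
Log2 of the group mean signal over the untreated mean, after flooring the means at 5.71, for 33 pathway genes (rows, ordered by role and separated by lines) in the 3 treated groups (columns). Red is higher and blue lower than untreated; Il13ra2 is dark red with IL-1β and with both agents, and Jak2, Irs2, Socs3, Socs5 and Ptpn1 are red with IL-1β and paler or blue with both agents.

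Genes that STAT6 is known to control in other cells gave 6 rises and 1 fall among 23 tested with IL-1β, with a median log2 change of 0.39 (15.5% and 15.3% over all genes, median 0.09). Tgm2, for a transglutaminase, rose by 4.94, from 35.6 ± 3.13 to 1097 ± 170, Egr2, for a zinc finger transcription factor, by 3.43, Ccl22, for a chemokine, by at least 3.04 and Arg1, for arginase, by at least 1.97, as the untreated arrays of the last pair were under the floor. The gene that fell, Vcam1, for an adhesion molecule, fell by 0.79, and this call was lost in 5 of 13 fits that left out 1 array. With both agents 6 of the 23 were lower than with IL-1β and 0 higher, beside 14.8% and 15.8% of all genes (7 had an unadjusted p under 0.05 with limma). Tgm2 with both agents read 68.2 ± 12.7. The interaction was called lower for 5 of the 23 and higher for 1 (6.68% and 5.11% over all genes). The 5 were Bcl6 (-0.88) and the 4 genes with the largest rises, and the 1 was Vcam1 (2.23, adjusted p = 0.0020 with limma). Vcam1 and Bcl6 were named after their values were seen.

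Of 5 tested genes listed as linked to the decoy chain, not all for proteins that bind it, 3 rose and 1 fell with IL-1β (15.5% and 15.3% over all genes). Chi3l1, for a secreted glycoprotein that binds it, rose by 0.54, and Tmem219, for the coreceptor in that complex, fell by 0.81. Tgfb1, for transforming growth factor β1, rose by 1.43, and Tgfbr1, for a receptor of it, by 1.19. The Tgfb1 call was lost without IL-1β array a (1.39) or c (1.24) or untreated array a (1.45), b (1.42) or c (1.41).

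Of 13 other decoy receptors and secreted antagonists of cytokines tested, 3 rose and 3 fell with IL-1β, beside 15.5% and 15.3% of all genes, and with counts this small nothing is read from them about the list. Ackr3, an atypical chemokine receptor that clears its ligand, rose by 2.30, Fst and Grem1, for the antagonists follistatin and gremlin, by 2.80 and 2.23, and Ackr4, another atypical chemokine receptor, fell by 3.62. Over glucosamine, 2 were higher with IL-1β, Ackr3 (1.57) and Grem1 (1.25), and 1 was lower, Tnfrsf11b (-1.03), for osteoprotegerin, named after its values were seen (1.45% and 1.13% over all genes). Fst read 172 untreated, 38.4 with glucosamine, 1199 with IL-1β and 31.2 with both agents.

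Among 19 other class I cytokine receptor chains, the structural family of Il4r and Il13ra2, 2 rose and 2 fell with IL-1β. Beside the 15.5% and 15.3% of all genes, nothing is read from counts this small. Il7r, for an IL-7 receptor chain, rose by at least 2.28, with 61.3 on IL-1β array d and 20.2 to 22.0 on the other 3. Il6st, for the shared chain gp130, rose by 0.94, Ghr, for the growth hormone receptor, fell by 1.93, and Il11ra1, for an IL-11 receptor chain, fell by 0.73. Among 9 genes of the class II family, interferon and IL-10 family chains together with F3, 4 rose, F3 among them, and 0 fell. Over all genes the shares were 15.5% and 15.3%, and 5 of the 9 had an unadjusted p under 0.05 with limma. Over glucosamine, with 1.45% of all genes called higher and 1.13% lower, IL-1β raised 1 of the 19 class I chains, Il6st (0.44), and lowered 1 of the 9 others, F3 (-0.67), for tissue factor, named after its values were seen. The Il6st call was lost in 8 and the F3 call in 6 of 13 fits that left out 1 array.

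The genes with signals most like that of Il13ra2 over the 13 arrays, by Pearson's r of log2 signals, were Ackr3 (0.993), Nfkbiz (0.990), Gfpt2 (0.988), Hopx (0.983), Cep43 (0.977), Ccl2 (0.973), Cxcl1 (0.972), Znrf1 (0.971), Ccl20 (0.971) and Tlr2 (0.967). This is a description: the 13 arrays share treatments, flask pool and platform. By rank correlation 1 of these 10 remained in the first 10, and 6 did without the d arrays. Il4r had an r of 0.618 and stood at place 1649 of 13747 genes, and Stat6 had 0.812 and stood at place 400.

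In signals, Ackr3 read 182 ± 4.21 untreated, 246 ± 28.0 with glucosamine, 904 ± 153 with IL-1β and 730 ± 102 with both agents. Nfkbiz, for an inhibitor-like partner of NF-κB, read 79.3 ± 3.30, 104 ± 6.48, 1064 ± 118 and 718 ± 25.5 in the same order. Gfpt2, for the enzyme that opens the hexosamine pathway to glucosamine phosphate, read 91.7 ± 3.76, 196 ± 11.4, 1245 ± 151 and 850 ± 116. Of 19 listed targets of NF-κB, the transcription factor that IL-1 activates, 18 rose and 1 fell with IL-1β (15.5% and 15.3% over all genes). The 1 that fell was Vcam1, which is also counted among the STAT6 targets. Its call was lost in 5 of 13 fits that left out 1 array. Over glucosamine 15 of the 19 rose (1.45% over all genes), and 16 were lower with both agents than with IL-1β (14.8% over all genes). A part of NF-κB in the Il13ra2 signal was not tested.

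Markers of T cells, mast cells, basophils and B cells were mostly near the floor. All 10 fibroblast and synovial markers measured were above it on all arrays. For T cells, 7 of 9 measured markers exceeded the floor on any array and 2 on all, with Cd3d and Cd8b on none, and for mast cells and basophils 9 of 10 and 2, with Fcer1a on none. Without the d arrays the summed T cell signals were 61.9 to 71.3 untreated, 43.2 to 53.0 with glucosamine, 52.8 to 85.7 with IL-1β and 69.6 to 85.0 with both. The summed mast cell signals were 61.2 to 90.3, 61.6 to 84.0, 84.8 to 127 and 63.2 to 85.0 in that order. The d arrays read 243 and 263 for T cells and 265 and 285 for mast cells. B cell markers summed to 5.86 to 23.2 without the d arrays and to 82.1 and 136 on them.

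With IL-1β, 15.5% of all genes were called higher and 15.3% lower. Limma called 0 of 7 T cell, 0 of 9 mast cell and 0 of 2 B cell markers tested, and 0, 0 and 1 of them had an unadjusted p under 0.05. Of 9 macrophage markers tested 2 rose, Cd68 and Cd14, and the sums were 267 to 286 untreated, 297 to 367 with glucosamine, 595 to 654 with IL-1β and 382 to 511 with both agents, with 2 of the 9 above the floor on all arrays. Of 7 endothelial markers 2 rose, Pecam1 and Tek, beside 15.5% of all genes, and the Tek call (0.94) was lost without IL-1β array d (0.80) or untreated array b (0.84) or c (0.98). They (4 of 7 on all arrays) summed to 88.7 to 120 untreated, 99.6 to 101 with glucosamine, and, without the d arrays, 133 to 169 with IL-1β and 110 to 125 with both, with 369 and 354 on the d arrays. Of 10 fibroblast markers, all above the floor on all arrays, 5 rose and 3 fell, and they summed to 16135 to 18042, 15067 to 15787, 16864 to 20137 and 15798 to 18032. Il13ra2 was high in both groups with IL-1β. The part of these cells in the receptor signals was not tested.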

How the data were processed

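The authors scanned 1 array per flask and deposited 1 linear intensity per probe set and array. Per the methods the values were made with Microarray Suite and Probe Profiler and globally scaled, whereas the labels name MAS5 version 5. Some intensities are below 0 and none is a whole-number count. The study began with more flasks and left out arrays that failed its quality control. Of 31099 probe sets, 57 controls were left out. Intensities were floored at the 25th percentile (5.71) and expressed as log2 without further scaling, and probe sets above the floor on at least 1 array were tested.

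The 4 groups, taken from sample titles, entered 1 linear model per probe set (R 4.3.3, limma 3.58.1, 9 residual degrees of freedom, moderated variances with a trend), tested on both sides with Benjamini-Hochberg adjustment over 29263 probe sets. The number of arrays limits the precision. No pair of arrays held identical values. Where several probe sets were annotated to a gene alone, the brightest on average stands for it; 20826 probe sets carried 1 gene, 436 several and 9780 none. Il4r, Stat6 and Il13ra2 had 1 probe set each.

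The members and the gene lists were chosen with earlier results of these data known, the lists from general knowledge of IL-4 and IL-13 signaling, STAT6 and NF-κB targets, decoys, receptor families and cell markers. Genes named are the members, called pathway genes, the 2 to 4 called genes with the largest change of each other list, the 10 most like Il13ra2, and those with a retained share at least as large; exceptions are marked. The script was tested on simulated data. As alternatives, the floor was moved to the 10th percentile, the 40th percentile or 32, arrays were quantile normalized or brought to a shared 75th percentile, and the filter, the trend and the groups in the fit were changed. Further alternatives were the replicate letter as a block, leaving out arrays, the methods' analysis of variance with the Tukey test, and other definitions of the retained share, the last chosen after seeing the data.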

Additional observations from a re-analysis of the deposited data

Results flagged for a closer look

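In 88 groups of 4 arrays examined, 7 times 1 array lay far from the other 3, and chance alone gives this in about 1 group in 20. All 7 were arrays labelled d. With both agents Pik3cd read 8.72 on array d and 21.8 to 24.4 on the others. Egr2 read 278.2 on IL-1β array d against 147 to 169, and 63.8 with both agents against 24.3 to 26.7. Il7r read 61.3 with IL-1β against 20.2 to 22.0, and 29.2 with both agents against 0.985 to 2.24. On IL-1β array d Fst read 1455 against 1095 to 1151, and Grem1 read 2673 against 1972 to 2059. The members Il13ra2, Il4r and Stat6 had no such array.

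The IL-1β response differed with and without glucosamine by the interaction term of the limma fit for 26 named genes or probe sets. Cell markers and genes marked above as named after their values were seen are not counted among the 26. The genes most like Il13ra2 and the called genes with the largest changes of other lists were also picked on these arrays. Nothing is therefore read from the count. Over all genes 6.68% were called lower and 5.11% higher. Of the receptor pathway these were probe set 1388711_at (log2 interaction -0.75), Jak2 (-1.12), Irs2 (-1.70), Socs5 (-1.27), Ptpn1 (-1.14) and Ptpn2 (-0.65). Of STAT6 targets they were Tgm2 (-3.91), Egr2 (-1.93), Ccl22 (-2.64) and Arg1 (-1.97). Over that whole list 5 of 23 were called lower and 1, Vcam1 (2.23), higher. Of the genes linked to the decoy chain they were Tgfbr1 (-0.97), Tmem219 (0.64) and Chi3l1 (-0.44). Of other decoys and antagonists they were Ackr3 (-0.73), Ackr4 (3.57), Fst (-3.10) and Grem1 (-0.98). Over that whole list 4 of 13 were called lower, with Tnfrsf11b (-1.24), and 3 higher, with Il1rl1 (1.43) and Nog (1.03). Of class I chains they were Ghr (1.29), Il6st (-0.50) and Il11ra1 (0.42). Of the genes most like Il13ra2 they were Nfkbiz (-0.96), Gfpt2 (-1.65), Cep43 (-0.80), Ccl2 (-2.39), Znrf1 (-1.21) and Ccl20 (-3.05). When 1 array at a time was left out, 12 of the 26 calls held in all 13 fits and 14 were lost in at least 1. The call was lost in 11 fits for Cep43, in 10 for Ackr3 (log2 interaction -0.85 to -0.62), in 9 for Egr2 and Il11ra1, in 7 for Tmem219, in 6 for Il6st, in 5 for Ghr and Ccl20, in 2 for Ccl22 and Chi3l1, and in 1 for Grem1, Jak2, Ptpn2 and probe set 1388711_at.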

How the results depend on the processing

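For Il13ra2 the floor set the size of the change: with floors at the 10th percentile, the 40th percentile and 32, IL-1β gave 5.12, 2.52 and 1.34 on the log2 scale, glucosamine gave 1.83, 0.00 and 0.00, and the interaction was -2.09, -0.27 and -0.27. Over glucosamine IL-1β gave 2.25 and 1.08 with the last 2 floors, and the retained share was 59.2% and 89.4% with the first 2. Quantile normalization gave 0.88 for glucosamine, 2.69 over glucosamine and -1.12 for the interaction. The share from untreated cells was 93.0% for rises of at least 3-fold, 5-fold and 10-fold. The Stat6 call with IL-1β was lost at the same 0.27 under quantile normalization, without the variance trend, with the compared groups alone and in the analysis of variance with the Tukey test, with adjusted p of 0.062 to 0.089 in the limma fits. Il4r with both agents against IL-1β, not called, turned to 0.0021 with a common 75th percentile, 0.016 on the values of the Tukey test and 0.13 without the d arrays, and its IL-1β difference passed at 0.59 without them. Probe set 1370728_at over glucosamine, not called, turned to -0.0087 (quantile) and -0.0098 (75th percentile).

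The count of pathway genes called with glucosamine, 2, was 1 with the common 75th percentile and without the trend, 10 with the compared groups alone and 4 without the d arrays. Over glucosamine it was 1 with the floor at the 40th percentile. The Tukey test called 4 with IL-1β and 4 between both agents and IL-1β.

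Leaving out 1 array at a time gave 0.23 to 0.33 for Stat6 with IL-1β and 0.45 to 0.63 for Il4r. For both agents against IL-1β it gave -0.10 to 0.17 for Il4r and -0.019 to 0.074 for Stat6, and for the interaction -0.092 to 0.026 for Stat6. Il13ra2 ranged from 3.74 to 3.91 with IL-1β and from 2.89 to 3.13 over glucosamine. Pathway calls ranged from 7 to 12 with IL-1β, from 1 to 2 with glucosamine (1 without either glucosamine array or untreated array a or c) and from 7 to 11 between both agents and IL-1β. Probe set 1370728_at over glucosamine ranged from -0.18 to 0.22.

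Deviations of 16 same-letter pairs of arrays correlated at -0.17 to 0.80, with 7 over 0.1. The value of 0.80 was that of the d arrays with each other, above every different-letter pair. The other 15 same-letter pairs correlated at -0.17 to 0.53, with 6 over 0.1. This lay within the range of the 46 different-letter pairs, -0.67 to 0.56, with 14 over 0.1. Apart from letter d, no pairing by replicate letter stood out, but overlapping ranges of so few pairs cannot exclude it. With the letter as a block, IL-1β gave 0.66 for Il4r, now called (adjusted p = 0.020), 0.23 for Stat6 (adjusted p = 0.026), 3.71 for Il13ra2 and 12 pathway calls, and no other call on the members changed; of the shared probe sets, the 1370728_at interaction passed (-0.95). Of 502 values of the members, pathway counts and shares over all settings, 447 kept direction and side of the threshold or stayed within the spread, and 12 reversed, all of Il4r or Stat6 and none called. A second probe set per member was not run, since each has 1.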
